A study of Homo sapiens with 6 samples.

Results

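The genes examined were 9 genes that hold back the cell cycle at its G1 stage: 3 CIP/KIP inhibitors (CDKN1A, CDKN1B and CDKN1C), 4 INK4 inhibitors (CDKN2A, CDKN2B, CDKN2C and CDKN2D) and 2 pocket protein genes (RB1 and RBL1). They were chosen by gene symbol, through the Entrez IDs of the counts table, and all 9 were found among its 28395 rows. Their RNA was measured in an immortalised line of human chondrocytes, TC28a2, transfected with an FAP overexpression vector (3 libraries) or with a control vector (3 libraries). RNA was taken 48 hours after transfection and sequenced by DRUG-seq, in which many RNA samples are pooled cheaply into 1 library preparation. FAP (fibroblast activation protein) is a serine protease of the cell surface, typical of activated fibroblasts. The series title places the comparison in work on senescent cells in osteoarthritis. All 6 libraries come from a single cell line, and the labels leave unsaid whether replicates were separate cultures. The p-values therefore rest on a spread among libraries that may be technical.

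Entry into S phase depends on kinases (CDK4, CDK6 and CDK2) that phosphorylate RB and its relatives, which otherwise hold the E2F transcription factors inactive. INK4 proteins bind CDK4 and CDK6 and keep D-type cyclins off them, while CIP/KIP proteins bind complexes of cyclin and kinase, chiefly those of CDK2. High levels of the products of CDKN1A (p21) and CDKN2A (p16) are widely used to mark senescent cells, in cartilage as elsewhere. The TC28a2 line was made, as background, with the large T antigen of the SV40 virus, a protein that binds pocket proteins and p53. Both groups share that origin.

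The promoter windows of the genes on which the results turn are shown first. They come from RefSeq (GRCh38.p14), run 5′ to 3′ on the gene's strand, and span 250 bases before and 50 bases after an annotated start. CDKN2B and CDKN2A are neighbours on the minus strand of chromosome 9, fitted at 1.72 and 0.991 times their control levels. RBL1 is shown because its window was the single one with an E2F motif among those searched. The CDKN2A windows belong to separate first exons, the upstream for the ARF transcript and the downstream for p16.
CDKN2B (chr9:22009256-22009555): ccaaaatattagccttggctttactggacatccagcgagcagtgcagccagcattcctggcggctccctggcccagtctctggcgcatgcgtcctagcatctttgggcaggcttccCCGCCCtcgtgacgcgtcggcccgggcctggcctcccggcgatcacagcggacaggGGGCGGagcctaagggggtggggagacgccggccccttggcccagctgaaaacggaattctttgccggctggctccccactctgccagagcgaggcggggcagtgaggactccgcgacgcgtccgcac
CDKN2A, upstream start (chr9:21995275-21995574): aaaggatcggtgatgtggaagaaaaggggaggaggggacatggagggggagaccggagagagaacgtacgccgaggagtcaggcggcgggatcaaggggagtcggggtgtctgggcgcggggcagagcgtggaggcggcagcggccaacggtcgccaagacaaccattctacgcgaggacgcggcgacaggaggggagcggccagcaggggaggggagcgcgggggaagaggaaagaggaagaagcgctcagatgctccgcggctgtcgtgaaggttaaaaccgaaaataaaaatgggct
CDKN2A, downstream start (chr9:21974808-21975107): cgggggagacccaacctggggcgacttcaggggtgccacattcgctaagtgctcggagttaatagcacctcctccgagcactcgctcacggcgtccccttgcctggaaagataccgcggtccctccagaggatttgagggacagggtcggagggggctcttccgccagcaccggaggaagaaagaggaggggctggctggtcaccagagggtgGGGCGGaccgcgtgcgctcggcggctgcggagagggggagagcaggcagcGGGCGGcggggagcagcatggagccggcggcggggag
RBL1 (chr20:37095948-37096247, minus strand): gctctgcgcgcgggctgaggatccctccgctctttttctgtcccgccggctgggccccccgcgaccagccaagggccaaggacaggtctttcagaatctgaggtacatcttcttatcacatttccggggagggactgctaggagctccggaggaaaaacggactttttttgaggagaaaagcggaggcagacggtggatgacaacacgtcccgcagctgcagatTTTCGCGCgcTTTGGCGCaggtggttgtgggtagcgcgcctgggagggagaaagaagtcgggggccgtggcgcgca
Capitals mark the motifs searched on both strands. The E2F words were TTTCGCGC, TTTGGCGC, TTTCCCGC and TTTGCCGC. The GC box was GGGCGG, and adjoining boxes run together in capitals. The RBL1 window held TTTCGCGC and TTTGGCGC, with first letters 26 and 16 bases before the start.

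Windows were found for 8 of the 9 genes, 11 windows in all. That of RB1 (chr13:48476200-48476499) belongs to an annotated start deep inside the gene, so the region before the gene's first start at 48303751 was not searched. An E2F word occurred in 1 of the 11, against 3.31% of the 35116 windows in the table. A GC box occurred in 7 of the 11, against 45.0% of all windows, among them CDKN2B with 2 boxes and the downstream CDKN2A start with 2. The TATA box TATAAA occurred in none of the 11, against 11.5% of all windows. A match is a description of letters, and no match says only that these letters are not in the window.

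Library totals ran from 5736056 to 13839743 gene counts. FAP had 1396, 3182 and 4733 counts in the FAP libraries, against 0, 11 and 5 in the controls, so each library matched its label. FAP replicate 3 stood apart from the other FAP libraries in its counts, with a chi-square, divided by its degrees of freedom, of 16.2 and 15.5, against 5.74 between FAP replicates 1 and 2 and 5.21 to 6.78 between controls. Rank (Spearman) correlations separated it less. They were 0.982 with FAP replicate 1 and 0.988 with FAP replicate 2, against 0.988 between those 2 and 0.987 to 0.990 between controls. For named genes whose call turned on FAP replicate 3, values are given with and without it. Of 10 chondrocyte markers only SOX9 had enough counts to be tested (37.4 CPM in FAP and 28.8 CPM in control libraries, adjusted p = 0.416). ACAN, COL2A1 and the other 7 had at most 15 counts in any library, so the labelled cell type shows few of its defining transcripts here. The summed level of the 10 markers was 32.9 to 44.4 CPM in FAP and 25.9 to 34.7 CPM in control libraries, and its part in the results below was not tested. Fibroblast markers were plentiful in both groups (2399 to 2663 CPM summed in FAP and 2180 to 2696 CPM in control libraries). Of 4 epithelial markers EPCAM and CDH1 had at most 4 counts in any library, but the keratins KRT8 and KRT18 were abundant, and the 4 summed to 1408 to 1540 CPM in FAP and 1313 to 1507 CPM in control libraries. The 3 haematopoietic markers summed to 15.8 to 18.3 CPM in FAP and 16.0 to 17.8 CPM in control libraries, most of it CD68, with PTPRC at no more than 4 counts. The 3 endothelial markers summed to 1.84 to 2.55 CPM in FAP and 0.712 to 0.983 CPM in control libraries, CDH5 being at 0 throughout. PECAM1 had 12, 20 and 24 counts in FAP libraries and 1, 4 and 9 in controls, and was not called (log2 difference 1.74, adjusted p = 0.293). The part of these markers in the results was not tested. In bulk RNA, fewer cells that express a gene and less RNA per cell cannot be told apart.

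No CDK inhibitor or pocket protein gene passed the test between FAP and control cells. The gene with the largest difference was CDKN2B, fitted at 1.72 times its control level, and CDKN1A was at 0.817 times and CDKN2A at 0.991 times theirs. All 9 genes had enough counts to be tested (edgeR's quasi-likelihood test with Benjamini-Hochberg adjustment over 13373 genes, called at an adjusted p under 0.05). Of all tested genes 0.224% were called, 13 higher and 17 lower in FAP libraries, and 0 of 9 is close to that share. DESeq2 and limma-voom also called none of the 9, DESeq2 giving no adjusted p for CDKN1C and CDKN2B. At an unadjusted p under 0.05 there were 3 members, CDKN1A, CDKN2B and CDKN2C, against 9.91% of all tested genes. The same 3 were the members whose FAP libraries lay wholly on 1 side of the controls, which 16.0% of all tested genes did. For 2 of them, CDKN2B and CDKN2C, that side was the higher, as for 7.96% of all tested genes. Across the 9 genes 4 log2 fold changes were positive and 5 negative, with a median of -0.013, against 0.0031 over all tested genes. The median size of the change, regardless of sign, was 0.11 in the 9 genes and 0.15 over all tested genes.

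**Figure D1:**
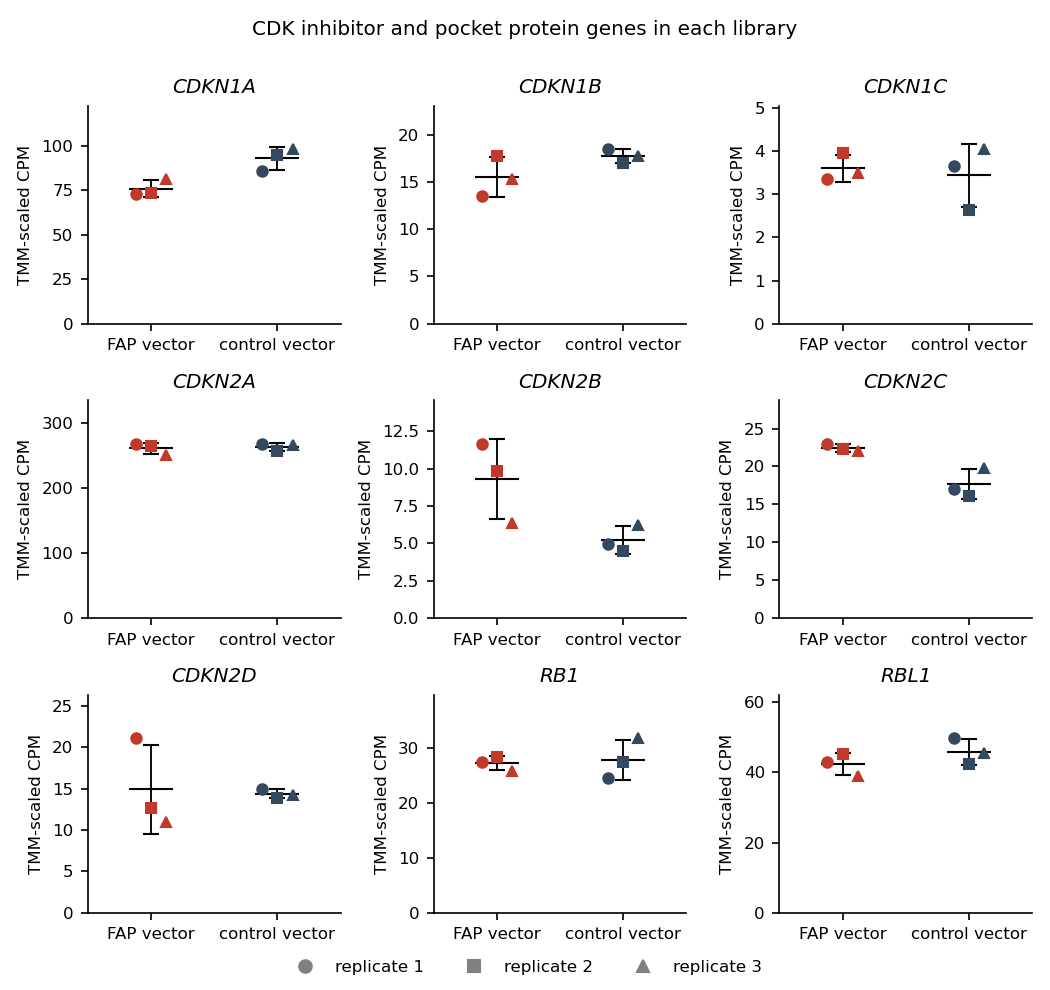
Level, in CPM (counts relative to library size, with TMM scaling), of the 9 genes in each library, on linear axes from 0. Symbols are replicates 1 to 3, and black lines are mean ± SD (n = 3 per group). The FAP libraries lie wholly below the controls for CDKN1A (72.9 to 81.3 against 85.8 to 97.9 CPM) and wholly above them for CDKN2B and CDKN2C.

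The plot of levels by library shows how little most of the 9 genes moved beside their own spread. Set among all tested genes by mean level and difference, the 9 lay within the cloud, and none of the genes with an adjusted p under 0.05 was among them.

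**Figure D2:**
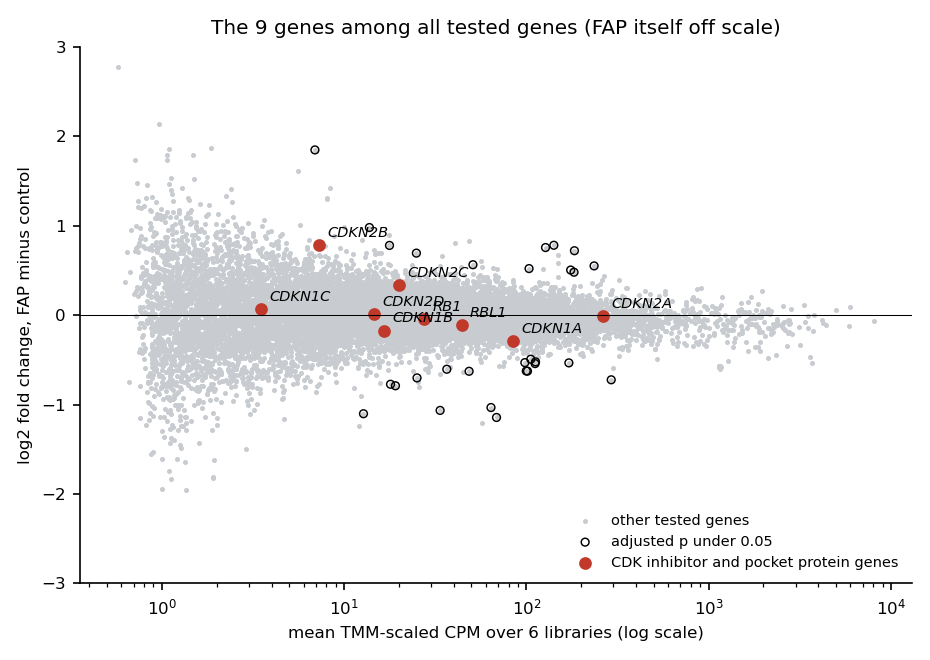
Log2 fold change (FAP minus control) against mean TMM-scaled CPM on a log axis for 13373 tested genes, with the 9 genes in red and other called genes circled. FAP itself lies off the scale at 8.80. CDKN2B (0.78) stands highest of the 9 at a mean of 7.25 CPM, and CDKN1A (-0.29) lowest at 84.4 CPM.

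CDKN1A (Entrez 1026, GRCh38 chromosome 6, 36676463 to 36687332) encodes p21, the inhibitor that p53 induces after DNA damage. It had 457, 1042 and 1097 counts in FAP libraries and 470, 868 and 1237 in controls. Scaled for library size this was 72.9, 73.5 and 81.3 CPM in the FAP libraries, against 85.8, 94.8 and 97.9 CPM in the control libraries. Every FAP library was below every control, with a gap of a few CPM between the highest FAP and the lowest control library. The means were 75.9 ± 4.67 CPM in FAP and 92.9 ± 6.26 CPM in control libraries (SD, n = 3 each). On the log2 scale the difference was -0.29 (SE 0.10, unadjusted p = 0.00928, adjusted p = 0.332 by edgeR), and 372 of the 13373 tested genes had a p as small or smaller. The 95% interval of the fold, which is not adjusted for the number of genes, ran from 0.705 to 0.946. Without FAP replicate 3 the log2 fold change was -0.35 (adjusted p = 0.0815).

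CDKN1B (Entrez 1027, chromosome 12, 12717368 to 12722369) encodes p27, the inhibitor that accumulates in resting cells and is degraded when they enter the cycle. Its level was 13.6, 17.8 and 15.3 CPM in FAP libraries, against 18.4, 17.0 and 17.7 CPM in control libraries. FAP replicate 2 lay within the range of the controls and the other two below it, so the groups overlapped. CDKN1B differed by -0.17 on the log2 scale (adjusted p = 0.751, SE 0.16), with a 95% interval of the fold from 0.708 to 1.11.

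CDKN1C (Entrez 1028, chromosome 11, 2883218 to 2885775) encodes p57, an imprinted growth inhibitor expressed from the maternal copy, which takes part in the exit of chondrocytes from the cycle during cartilage development in mice. It was the thinnest measured of the 9 genes, with 21, 56 and 47 counts in FAP libraries and 20, 24 and 51 in controls. Counting error alone is 13.4% to 22.4% of such counts. Its level was 3.35, 3.95 and 3.48 CPM in FAP libraries, against 3.65, 2.62 and 4.04 CPM in control libraries, so the groups overlapped. Its log2 difference was 0.07 (adjusted p = 0.963, SE 0.31), and folds between 0.668 and 1.65 lie inside the 95% interval. A change of CDKN1C within those bounds is compatible with these counts, and the bounds are not a limit of detection.

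CDKN2B (Entrez 1030, chromosome 9, 22002903 to 22009313) encodes p15, the INK4 inhibitor known as a target of TGF-beta signalling in epithelial cells. It had 73, 139 and 86 counts in FAP libraries and 27, 41 and 79 in controls. On the CPM scale these were 11.6, 9.81 and 6.37 CPM in FAP libraries, against 4.93, 4.48 and 6.25 CPM in control libraries. FAP replicates 1 and 2 stood well above the controls, while FAP replicate 3 and control replicate 3 were nearly level. FAP replicate 3, the FAP library with the lowest CDKN2B, held the most FAP RNA (351 CPM, against 223 and 225 CPM in FAP replicates 1 and 2). That library also stood apart from the other FAP libraries in its counts as a whole. A relation of CDKN2B to the level of FAP was not tested. CDKN2B averaged 9.28 ± 2.68 CPM in FAP and 5.22 ± 0.921 CPM in control libraries (SD, n = 3 each). In the fit this was a log2 fold change of 0.78 (SE 0.25, unadjusted p = 0.00592, adjusted p = 0.294 by edgeR), with a 95% interval of the fold from 1.19 to 2.49. Without FAP replicate 3 it was 1.00 (SE 0.26, adjusted p = 0.0240), and CDKN2B was then called, alone of the 9, in a fit that called 248 genes, 1.86% of those tested. The call therefore depends on that library, and leaving out any other library gave no call.

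CDKN2A (Entrez 1029, chromosome 9, 21967752 to 21995324) yields 2 proteins, the INK4 inhibitor p16 and, from another first exon and reading frame, ARF, which stabilises p53. Gene counts add both transcripts together. CDKN2A had 1675, 3744 and 3392 counts in FAP libraries and 1466, 2349 and 3357 in controls, the most counts of the 9 genes. Its level was 267, 264 and 251 CPM in FAP libraries, against 268, 257 and 266 CPM in control libraries. The groups overlapped and their means lay within 1 SD of each other, at 261 ± 8.45 CPM in FAP and 263 ± 5.93 CPM in control libraries (SD, n = 3 each). CDKN2A had a log2 difference of -0.01 (adjusted p = 0.978, SE 0.09). The 95% interval of the fold, from 0.867 to 1.13, was the narrowest of the 9 genes, and changes of p16 and ARF transcripts in opposite directions could cancel inside it.

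CDKN2C (Entrez 1031, chromosome 1, 50960745 to 50974634) encodes p18, and CDKN2D (Entrez 1032, chromosome 19, 10566460 to 10568979) encodes p19, the INK4 inhibitors best known from development and differentiation. CDKN2C was at 22.98, 22.30 and 22.01 CPM in FAP libraries, against 17.0, 16.2 and 19.9 CPM in control libraries. Its FAP libraries were tightly grouped above all 3 controls. CDKN2C differed by 0.33 on the log2 scale (SE 0.14, unadjusted p = 0.0307, adjusted p = 0.445 by edgeR), with a 95% interval of the fold from 1.02 to 1.55. CDKN2D was at 21.1, 12.7 and 11.0 CPM in FAP libraries, against 14.98, 13.87 and 14.25 CPM in control libraries. Here a single library, FAP replicate 1, was above the controls and the other FAP libraries were below them. CDKN2D differed by 0.013 on the log2 scale (adjusted p = 0.992, SE 0.20). Leaving out FAP replicate 1 gave -0.27 (adjusted p = 0.651), and leaving out FAP replicate 3 gave 0.19 (adjusted p = 0.743).

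**Figure D3:**
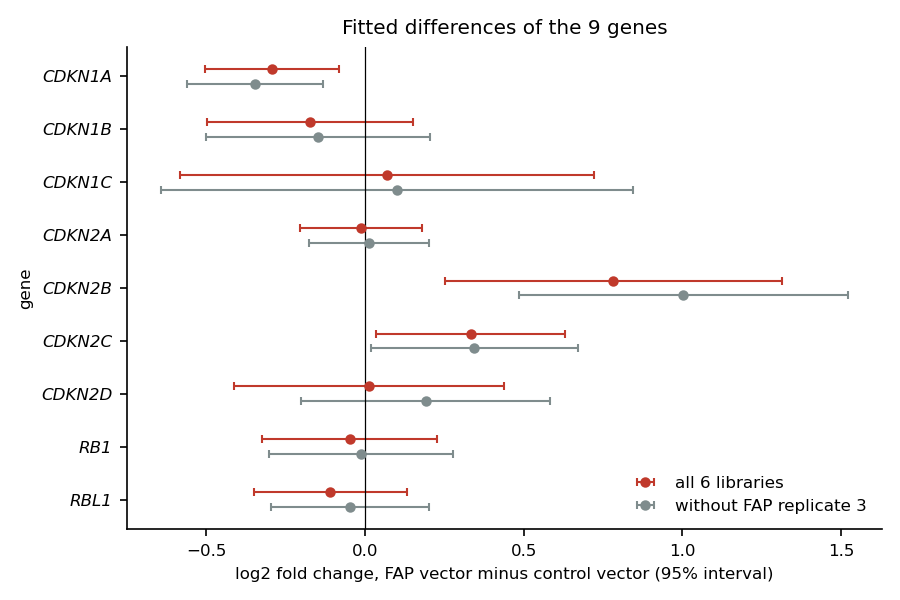
Log2 fold change (FAP minus control, x axis) of each gene (y axis) with its 95% interval, in all 6 libraries (red) and without FAP replicate 3 (grey). Intervals are not adjusted for the number of genes. With all 6 libraries those of CDKN1A, CDKN2B and CDKN2C exclude 0, and CDKN2B lies at 0.78, or at 1.00 when FAP replicate 3 is left out.

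The intervals in the plot of fitted differences give the changes compatible with the spread among these libraries, which may be technical. For 6 of the 9 genes the 95% interval lay wholly inside a 1.5-fold change in either direction, and for 8, all but CDKN2B, inside a 2-fold change.

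RB1 (Entrez 5925, chromosome 13, 48303751 to 48481890) encodes the retinoblastoma protein, the main restraint on activating E2F factors. It was at 27.4, 28.4 and 25.9 CPM in FAP libraries, against 24.5, 27.4 and 31.7 CPM in control libraries, with the FAP values inside the range of the controls. RB1 had a log2 difference of -0.05 (adjusted p = 0.938, SE 0.13), with a fold interval from 0.800 to 1.17. RBL1 (Entrez 5933, chromosome 20, 36996349 to 37095997) encodes p107, a pocket protein that joins repressor E2F factors and whose own gene is a known E2F target. It was at 42.9, 45.2 and 39.0 CPM in FAP libraries, against 49.7, 42.4 and 45.5 CPM in control libraries. The groups overlapped, with a log2 difference of -0.11 (adjusted p = 0.795, SE 0.12) and a fold interval from 0.784 to 1.10. The E2F words in the RBL1 window thus stand before a gene with no detected difference in these libraries.

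Summed by family, on the CPM scale, the CIP/KIP genes were at 89.8, 95.3 and 100.05 CPM in FAP libraries, against 108, 114 and 120 CPM in control libraries. Most of these counts were CDKN1A, which made up 79.9 ± 2.33% of CIP/KIP counts in FAP libraries and 81.4 ± 1.69% in control libraries (SD, n = 3 each). The INK4 genes summed to 323, 309 and 291 CPM in FAP libraries and 305, 291 and 306 CPM in control libraries, and the groups overlapped. Of the pocket protein genes only RB1 and RBL1 were examined. They summed to 70.4, 73.6 and 64.8 CPM in FAP libraries and 74.2, 69.8 and 77.2 CPM in control libraries, also with overlap.

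A share of counts within a library does not depend on how libraries are scaled. CDKN2B made up 4.18%, 3.58% and 2.47% of CDKN2A plus CDKN2B counts in FAP libraries, against 1.81%, 1.72% and 2.30% in control libraries. Every FAP share was above every control share, with means of 3.41 ± 0.864% in FAP and 1.94 ± 0.314% in control libraries (SD, n = 3 each). The lowest FAP share, in replicate 3, had an exact (Clopper-Pearson) 95% interval of 1.98% to 3.04%, which overlapped that of control replicate 3, 1.82% to 2.86%. These intervals cover counting error only.

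**Figure D4:**
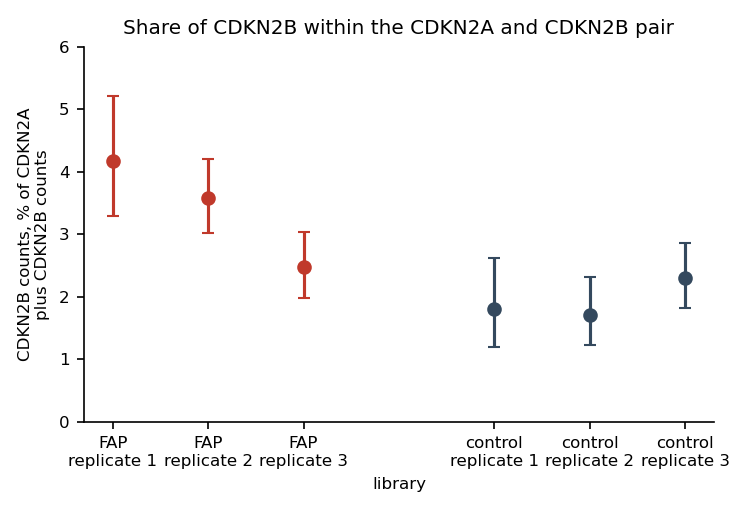
CDKN2B counts as a percentage of CDKN2A plus CDKN2B counts in each library (x axis), with exact 95% binomial intervals. FAP replicates 1 and 2 lie at 4.18% and 3.58%, above the 3 controls at 1.72% to 2.30%, and FAP replicate 3 lies at 2.47%, its interval overlapping that of control replicate 3.

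CDKN2A and CDKN2B are related in sequence, so reads could be placed at either gene. Their GENCODE 29 transcripts shared 31 words of 50 bases, and no other pair of the 9 genes shared any. A read lying inside such a word cannot be assigned to CDKN2A or to CDKN2B. The antisense gene CDKN2B-AS1, which overlaps both, had 7, 9 and 27 counts in FAP libraries and 8, 13 and 25 in controls. It shares 341 exon bases with CDKN2A and none with CDKN2B in GENCODE 29, and it differed by -0.38 on the log2 scale (adjusted p = 0.841, SE 0.50). The flanking genes of the locus were not called either. MTAP, an enzyme of methionine salvage, differed by -0.05 on the log2 scale (adjusted p = 0.913), and DMRTA1 by -0.64, at 2.77 ± 0.475 CPM in FAP and 4.32 ± 0.603 CPM in control libraries (adjusted p = 0.505). Within RB1 the genes LPAR6 and RCBTB2 lie on the other strand without shared exon bases, and LPAR6 had at most 6 counts in any library.

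The genes whose profile over the 6 libraries was most like that of CDKN2B were COL6A2, a chain of collagen VI, PTMS, parathymosin, and IER5L. Their root mean square differences from CDKN2B in centred log2 CPM were 0.11, 0.13 and 0.15, against a spread of 0.48 in CDKN2B itself. Of these, COL6A2 and PTMS were called (log2 fold changes of 0.72 and 0.78, adjusted p = 0.0167 and 0.00382). For CDKN1A the nearest were SLC35C1, a Golgi transporter of GDP-fucose, DHODH, an enzyme of pyrimidine synthesis, and EPHA2, an ephrin receptor, at 0.04, 0.05 and 0.05 against a spread of 0.16. None of these was called (log2 fold changes of -0.33, -0.29 and -0.31, smallest adjusted p = 0.294). With 6 libraries and 8517 or 8518 genes searched, close profiles are a description and carry no test.

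Around the inhibitors, 9 lists of pathway genes held 117 genes, of which 114 were tested and 1, cyclin E2, was called. Among 13 G1 cyclins and kinases 1 was called lower and none was called higher. An unadjusted p under 0.05 was found for 2 of them, 1 higher and 1 lower. Of the 13 log2 fold changes 11 were negative, with a range of -1.03 to 0.58 and a median of -0.11. CCNE2 encodes a cyclin that activates CDK2, a kinase that CIP/KIP proteins inhibit. It was at 44.5, 47.1 and 34.3 CPM in FAP libraries, against 95.5, 80.4 and 82.0 CPM in control libraries. CCNE1 and CCNA2, which also activate CDK2, were not called (log2 differences -0.20 and 0.17, adjusted p = 0.599 and 0.618 by edgeR). All FAP values of CCNE2 were well below all control values (log2 difference -1.03, adjusted p = 2.451e-04 by edgeR, SE 0.12). Without FAP replicate 3, the library with the lowest CCNE2, the log2 difference was -0.90 (adjusted p = 7.7e-07 by edgeR). CCNE2 and CDKN1A were both lower in every FAP library than in any control, CCNE2 past the test and CDKN1A not. Such separation, in either direction, was found for 16.0% of all tested genes and for 5 of these 13. A link between CCNE2 and CDKN1A was not tested.

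**Figure D5:**
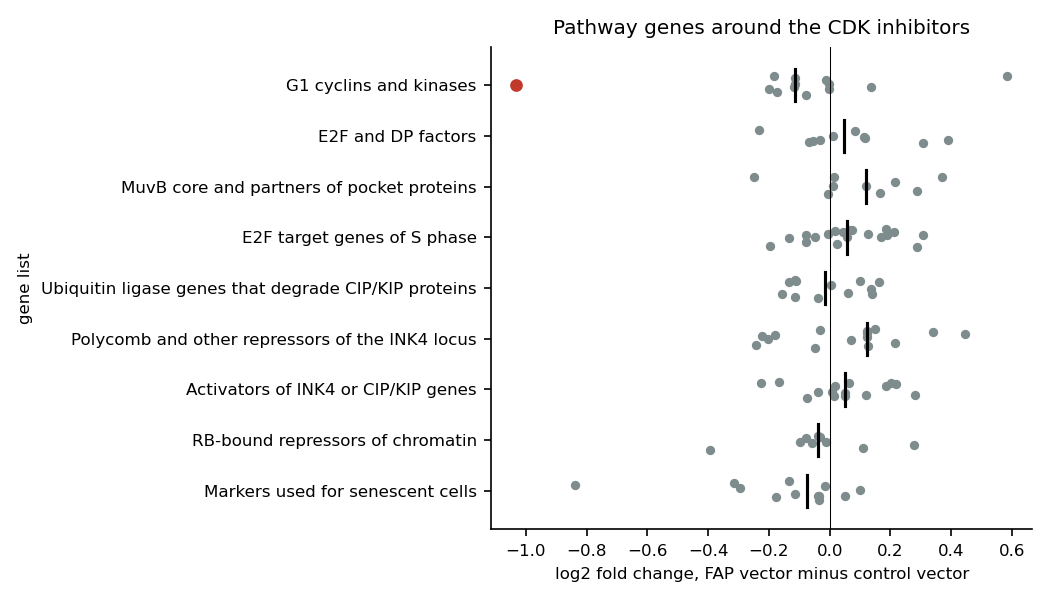
Log2 fold change (FAP minus control, x axis) of each tested gene of the 9 pathway lists (y axis), with black bars at list medians and red for a called gene. CCNE2 at -1.03 is the called gene, and list medians lie between -0.11 and 0.12.

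CCNE2, listed with the cyclins, is itself a known E2F target, and the lists of factors, targets and partners of RB and E2F held no called gene, as the plot of pathway lists shows. Across all tested genes 9.91% had an unadjusted p under 0.05, the share to set beside each such count in these lists. Of 10 E2F and DP factors none was called and 1 had an unadjusted p under 0.05, with a median of 0.05. E2F1, an activating E2F, was at 115 ± 9.53 CPM in FAP and 135 ± 8.19 CPM in control libraries (log2 fold change -0.23, adjusted p = 0.448), and E2F8, a repressor of the family, had 0.39 (adjusted p = 0.540). Of 19 tested S phase targets of E2F none was called and 1 had an unadjusted p under 0.05, with a median of 0.06. GINS1 and MCM6, parts of the replicative helicase, had 0.31 and 0.21 (adjusted p = 0.398 and 0.510). Of 9 genes of the MuvB core and partners, which act with RBL1 and its relatives, none was called and 1 had an unadjusted p under 0.05, with LIN9 at 0.37 and RBBP4 at -0.25 (adjusted p = 0.442 and 0.527). Of 9 chromatin repressors that RB binds none was called, and 1 had an unadjusted p under 0.05, the remodelling ATPase SMARCA2 (-0.39, adjusted p = 0.358, or -0.55 and 0.0238 without FAP replicate 3), with SIN3A, a corepressor scaffold, at 0.28 (adjusted p = 0.505).

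Tested genes known to act on the amount of the inhibitors were likewise not called. Of 17 listed repressors of the INK4 locus 15 were tested, as BMI1 and PCGF2 did not pass the filter on low counts. None of the 15 was called, and their median was 0.12. An unadjusted p under 0.05 was found for 4 of them, of which 3 were higher (9.91% of all tested genes had such a p). The Polycomb gene CBX2 had a log2 difference of 0.44 (adjusted p = 0.401). Of 15 activators of INK4 or CIP/KIP genes none was called or had an unadjusted p under 0.05 (median 0.05), with SMAD3, a carrier of TGF-beta signals, at 0.20 and KLF6, an activator of CDKN1A, at -0.17 (adjusted p = 0.531 and 0.575). Of 12 ubiquitin ligase genes that act in the degradation of CIP/KIP proteins none was called or had an unadjusted p under 0.05 (median -0.02), with SKP1 at 0.16 and DTL at -0.16 (adjusted p = 0.575 and 0.657).

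Of 12 genes used as markers of senescent cells none was called by edgeR, 2 had an unadjusted p under 0.05, and 10 of the 12 log2 fold changes were negative (median -0.08). HMGA2, a chromatin protein of senescent heterochromatin foci, was at 70.2 ± 0.829 CPM in FAP and 86.0 ± 7.05 CPM in control libraries (SD, n = 3 each; log2 fold change -0.30, adjusted p = 0.326).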

How the data were processed

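Whole-number read counts per Entrez gene ID were deposited for 6 libraries, without normalization. HISAT2, featureCounts, Subread and the build GRCh38 are named per the submitters' processing notes. Not given in the sources used here are versions, the strand setting, and how multiply aligned reads and molecular identifiers were handled. Reads of overlapping or near-identical genes may therefore be misplaced, and amplification copies may be counted. Of 28395 IDs, 27745 matched a symbol in RefSeq (GRCh38.p14), whose coordinates are given; strands, exons and transcripts are from GENCODE 29 (GRCh38).

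The comparison of FAP minus control used the two-sided quasi-likelihood F test of edgeR 4.0.16 (R 4.3.3) on TMM-scaled libraries, without covariates. Genes passed filterByExpr at a count of 10 and a total of 15, and p was adjusted by Benjamini-Hochberg over 13373 genes. The standard error is the size of the log2 fold change divided by the square root of F, and 95% intervals use the t distribution of the fit. The common biological coefficient of variation was 11.8%. Replicates of each group differed by more than the counting noise of 1 library counted again, which does not tell separate cultures from repeat preparations, and each was counted as 1 sample. Alternatives were DESeq2 1.42.0, limma-voom (limma 3.58.1), other scalings and filters, thinning to the smallest library, a replicate block, and leaving out each library.

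The 9 genes and the lists were chosen with earlier results of these data known. The text names the 9 genes, FAP, called list genes (in a list with none, the 2 of smallest p), genes that overlap or flank a member, and for CDKN1A and CDKN2B the 3 genes of at least 10 CPM with the nearest profile. CCNE1, CCNA2, BMI1 and PCGF2 are named besides. LINC00462, which overlaps RB1, had 0 counts. Some genes and a sequence that these rules would name are not reported here. Tests were checked on simulated data.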

Additional observations from a re-analysis of the deposited data

How the results depend on the processing

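Under the alternatives run, an adjusted p under 0.10 in place of 0.05 among them, none of the 9 genes was called except CDKN2B without FAP replicate 3. With each library left out in turn, 0 to 1 of the 9 genes, 1 to 3 pathway list genes and 3 to 248 genes over the whole table were called. Over the whole table, 30 genes were called in all 6 libraries by edgeR with TMM, against 98 with DESeq2, 152 with no filter on low counts, 19 with library totals alone and 19 after thinning. DESeq2 called 2 list genes, CCNE2 among them. The cause of these shifts was not tested.

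The log2 fold changes of CDKN1A (-0.35 to -0.24), CDKN1B (-0.29 to -0.10), CDKN2B (0.62 to 1.00), CDKN2C (0.27 to 0.44) and RBL1 (-0.16 to -0.05) kept their sign under every alternative that gave a value. The 4 others changed sign in some. CDKN2A was at 0.041 with library totals and 0.018 after thinning, and at -0.027 to 0.014 with each library left out, positive without FAP replicate 3. CDKN2D was at -0.10 with limma-voom, -0.026 after thinning, -0.027 with the replicate block and -0.27 to 0.19 with each library left out. RB1 was at 0.0032 with library totals and -0.12 to 0.063 with each library left out. CDKN1C was at -0.094 to 0.23 with each library left out. With a filter of 10 CPM in 3 libraries CDKN1C and CDKN2B were not tested.

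Deviations from the group means of same-numbered libraries correlated at -0.0041 to 0.020, against -0.019 to 0.019 for libraries of different numbers. No pairing by replicate number was seen in this measure. It cannot show whether same-numbered libraries were handled together, which the labels leave unsaid. With the replicate number as a block 44 genes were called, none of the 9 among them, and no call of a member changed. Depth limits CDKN1C and CDKN2B most, since their counts were as low as 20 and 27 in a library.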
